A study of Homo sapiens with 18 samples.

Results

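High mobility group (HMG) proteins are abundant chromatin proteins that are not histones, and they were named for their fast movement in gels. They fall into 3 subfamilies. HMGA proteins bind the minor groove of AT-rich DNA through short AT-hook motifs, HMGB proteins bend DNA with HMG boxes and end in an acidic tail, and HMGN proteins bind the nucleosome core particle itself and compete with linker histone H1. All 10 genes examined here were chosen by symbol: HMGA1, HMGA2, HMGB1, HMGB2, HMGB3, HMGN1, HMGN2, HMGN3, HMGN4 and HMGN5. They are 10 of the 13661 genes in the deposited table, all 10 are among the 12720 genes kept after a filter on low values, and 0 other rows carried a symbol beginning with HMGA, HMGB or HMGN.

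The values describe where each mRNA sat in a sucrose gradient of HEK293 cells, an established human embryonic kidney line, after 12 h with DMSO vehicle. Polysome profiling separates mRNAs by how many ribosomes they carry, and each gradient was cut into a monosome, a light polysome and a heavy polysome pool, with 3 replicates of each. The study also has 9 libraries from cells given 100 µM minocycline, a tetracycline antibiotic, for the same time; they were not analysed here. All groups used were therefore the same line, genotype and vehicle, and differed in the pool of the gradient they came from. The markers looked at for the line, which include PAX2, UCHL1, VIM and KRT18, were all kept (7 of 7), and of 4 markers of blood, liver, fibroblast and endothelial cells the table held 1, COL1A1, at a mean of 54.5 normalized counts, where the 7 markers of the line had means from 87.6 (PAX2) to 6323 (VIM). Each library pooled many cells, so a difference shared by all cells and one of only some cells cannot be told apart.

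The 9 libraries held between 13447139 and 24441159 reads. The light polysome library of replicate 2 stood apart: over all genes kept its mean correlation was 0.894 with the other light polysome libraries and 0.940 with the heavy polysome libraries, while the light polysome libraries of replicates 1 and 3 correlated at 0.985. Whether that library holds the pool its label names was not tested. Values of gradient 2, or values without that library, are given beside the results where gradient 2 differs most. The family was put forward with the heavy over monosome values of HMGN5 and HMGB2 already known, and its rule takes every fraction column of the table, so the genes were taken by symbol but with results in view, and the distributions of its members are given as a description and with no test.

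A few coding stretches show what separates the subfamilies at the level of sequence. They were read from the GENCODE 29 transcripts of GRCh38 in the sense of the mRNA, 5′ to 3′, and are written with T. The acidic tails of the HMGB genes are shown because each is a run made only of codons for aspartate and glutamate that ends directly before the stop codon, and capitals mark that run. It has 30 codons in HMGB1 (chr13:30461360-30461449, minus strand), 22 in HMGB2 (chr4:173332083-173332148, minus strand) and 20 in HMGB3 (chrX:150987852-150987911, plus strand).
HMGB1: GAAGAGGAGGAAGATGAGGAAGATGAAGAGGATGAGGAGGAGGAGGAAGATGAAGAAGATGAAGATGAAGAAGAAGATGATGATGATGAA
HMGB2: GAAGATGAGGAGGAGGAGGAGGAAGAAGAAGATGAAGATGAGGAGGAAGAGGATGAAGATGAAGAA
HMGB3: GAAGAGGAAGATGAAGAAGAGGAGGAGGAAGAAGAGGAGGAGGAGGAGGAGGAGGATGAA

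HMGB1 used the codon GAT 10 times in its tail, HMGB2 5 times and HMGB3 2 times, and GAC was used 0 times in any of them. HMGB3 instead leaned on GAG, with 11 of its 20 codons.

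The nucleosome-binding core of the HMGN genes is shown because it is the feature that defines the subfamily and is kept in all 5. Capitals mark the 8 codons of the core, with 12 bases of coding sequence on each side.
HMGN1: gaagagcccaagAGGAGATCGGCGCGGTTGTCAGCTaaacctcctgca
HMGN2: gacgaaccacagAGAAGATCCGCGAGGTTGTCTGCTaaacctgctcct
HMGN3: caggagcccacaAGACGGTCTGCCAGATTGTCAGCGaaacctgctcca
HMGN4: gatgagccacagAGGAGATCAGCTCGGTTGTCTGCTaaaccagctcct
HMGN5: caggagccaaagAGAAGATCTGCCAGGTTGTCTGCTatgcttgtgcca

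All 5 stretches encode the same 8 residues in the core, although only 15 of the 24 bases are the same in all of them. The closest pair in the core was HMGN2 and HMGN5, with 22 of 24 bases identical, and the most distant was HMGN3 and HMGN4, with 15. The HMGN4 stretch lies unbroken on the plus strand at chr6:26545261-26545308. Those of HMGN1 (chr21:39348328-39348550, minus strand), HMGN2 (chr1:26473522-26474096, plus strand), HMGN3 (chr6:79203619-79214977, minus strand) and HMGN5 (chrX:81118474-81119793, minus strand) are joined across introns within those limits. Downstream of the core HMGN5 differs from the other 4: its coding sequence runs to 849 nt, against 273 to 303 nt in HMGN1 to HMGN4, and 36.2% of its 282 codons are for acidic residues.

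The 10 mRNAs covered nearly the whole range of the gradient. Mean ribosome load, the authors' deposited score, weights the 3 shares of an mRNA by 1 for monosomes, 2.5 for light and 6 for heavy polysomes. On that scale the median gene stood at 3.17, 3.17 and 3.16 in gradients 1, 2 and 3. HMGN5 was the highest of the family at 4.95 ± 0.77 (SD, n = 3 gradients), with 99.8% of the genes kept below it, and HMGN3 was the lowest at 1.68 ± 0.14, with 2.92% below it. Between them came HMGB2 (4.74 ± 0.49), HMGB1 (4.64 ± 0.81), HMGB3 (3.74 ± 0.40), HMGA2 (3.05 ± 0.07), HMGN1 (2.69 ± 0.08), HMGN4 (2.62 ± 0.30), HMGN2 (2.26 ± 0.14) and HMGA1 (2.18 ± 0.36). All 3 HMGB mRNAs and HMGN5 lay above the median gene in each of the 3 gradients, and the other 6 lay below it in each. The share of all genes that kept to the same side in every gradient is not given here. With the share in light plus heavy polysomes as the measure, however, HMGA2, HMGN1 and HMGN4 lay above the median gene on average, by 13.4, 4.27 and 6.23 percentage points. On this measure HMGN1 lay below the median gene in gradient 2, with 36.9% in monosomes against a median of 30.9%. HMGN4 lay below it in gradient 3, with 34.2% in monosomes against a median of 31.3%. Each fraction had been scaled to the same typical gene, so these loads rank genes against each other and do not count ribosomes.

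**Figure D1:**
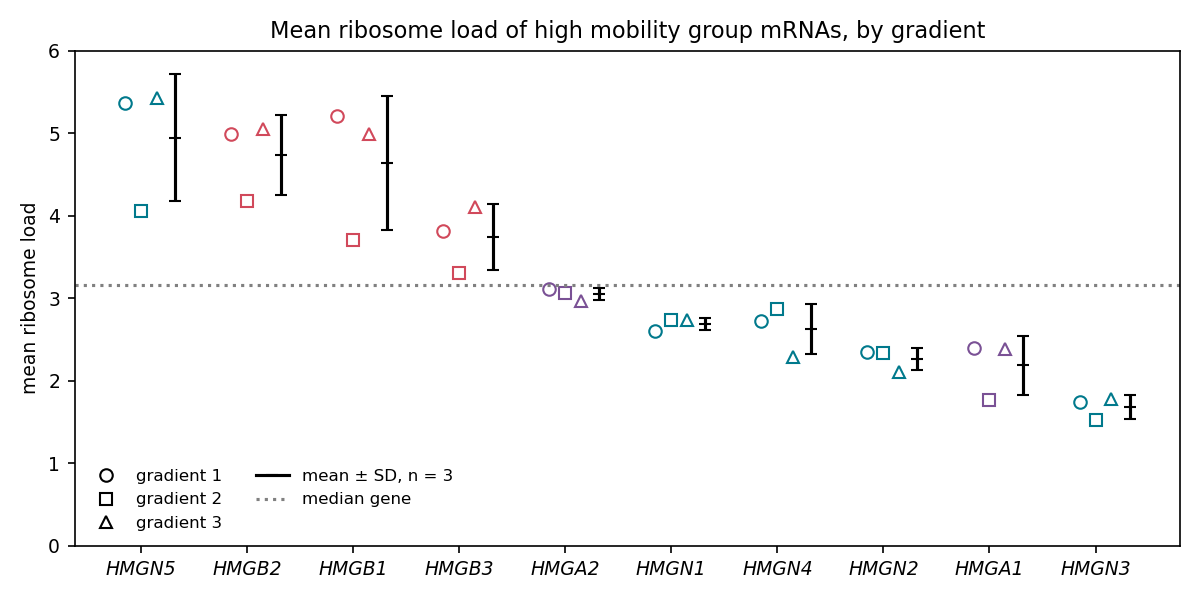
Mean ribosome load (y axis, authors' weights) of the 10 high mobility group mRNAs in each of 3 gradients (open symbols), with mean ± SD in black and the median gene as a dotted line; HMGB genes are red, HMGN teal and HMGA purple. HMGN5, HMGB2 and HMGB1 sit highest, each with gradient 2 below gradients 1 and 3, and HMGN3 sits lowest.

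Neighbours in that order were not always separable. HMGN5 exceeded HMGB2 in gradients 1 and 3 and was below it in gradient 2, and the mean difference of 0.21 ± 0.29 was smaller than its own SD. The mean difference was also smaller than its SD for HMGB2 over HMGB1 (0.10 ± 0.35), which was higher in 2 of 3 gradients. The same was true of HMGN1 over HMGN4 (0.067 ± 0.34) and HMGN2 over HMGA1 (0.079 ± 0.44), where the first gene was higher in only 1 of 3 gradients. The remaining neighbours kept their order in 3 of 3 gradients, with mean differences of 0.90 for HMGB1 over HMGB3, 0.69 for HMGB3 over HMGA2, 0.36 for HMGA2 over HMGN1, 0.36 for HMGN4 over HMGN2 and 0.50 for HMGA1 over HMGN3.

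HMGB1 is the most studied HMG-box protein, a nuclear DNA chaperone that also signals as an alarmin when it leaves the cell. Its normalized counts were 3978, 2772 and 2539.9 in the monosome libraries of replicates 1, 2 and 3, 7861, 20614 and 6048 in the light polysome libraries, and 48455, 14192 and 24907 in the heavy polysome libraries. The heavy polysome libraries all exceeded the monosome libraries, whereas the light library of replicate 2 exceeded the heavy library of the same number. In gradients 1 and 3 heavy polysomes held 80.4% and 74.4% of the HMGB1 signal, and in gradient 2 they held 37.8% with 54.9% in light polysomes. On the log2(normalized count + 1) scale the heavy over monosome difference was 3.08 (SE 0.56) and the heavy over light difference 1.38 (SE 0.56). Without the light polysome library of replicate 2, heavy over light was 1.90.

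HMGB2, which is enriched in proliferating cells and was found in the SET complex with other chromatin and repair proteins, followed the same course. Monosome libraries held 2305, 1049.5 and 909 normalized counts, light polysome libraries 4787, 11125 and 4729, and heavy polysome libraries 20889, 12104 and 16536. Here the heavy polysome libraries lay above all libraries of both other fractions, and HMGB2 was the only member that the authors' strict classes place in heavy polysomes. Its share in heavy polysomes was 74.7%, 49.9% and 74.6% in gradients 1, 2 and 3. The log2 difference was 3.63 (SE 0.48) for heavy over monosome, 1.35 (SE 0.48) for heavy over light and 2.28 (SE 0.48) for light over monosome. Without the light polysome library of replicate 2 light over monosome was 1.87 and heavy over light 1.76.

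HMGB3, an X-linked member known from blood stem and progenitor cells, stayed closer to the middle. It had 3217, 2571 and 1557 normalized counts in monosome libraries, 7632, 3580.4 and 6244 in light and 8750.3, 3271 and 7822 in heavy polysome libraries. Light and heavy polysome libraries overlapped, and both lay above the monosome libraries. Heavy over monosome was 1.37 (SE 0.48) on the log2 scale, light over monosome 1.24 (SE 0.48) and heavy over light 0.13 (SE 0.48); the last was -0.19 without the light polysome library of replicate 2. Light polysomes held 39.0% ± 0.98 of its signal, the smallest spread of any light polysome share in the family. HMGB1 and HMGB2 are 77.1% identical over their aligned coding sequences, and HMGB3 is 74.1% identical to HMGB1 and 72.6% to HMGB2.

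HMGN5 carries a long acidic tail that the other HMGN proteins lack, and it can unfold chromatin. It had 895, 329 and 286 normalized counts in the monosome libraries, 2007, 3659 and 1283 in the light and 15147, 3454 and 8676 in the heavy polysome libraries. Heavy polysomes exceeded monosomes in every pairing of libraries, and light and heavy libraries overlapped. Heavy polysomes held 83.9% and 84.7% of its signal in gradients 1 and 3 and 46.4% in gradient 2, where light polysomes held 49.2%. In gradient 2 the light polysome share of HMGN5 was thus higher than in gradients 1 and 3, as it was for HMGB1 and HMGB2, whereas that of HMGN1, HMGN2 and HMGN3 was lower. Its log2 differences were 4.13 (SE 0.57) for heavy over monosome, 2.27 (SE 0.57) for light over monosome and 1.86 (SE 0.57) for heavy over light. Without the light polysome library of replicate 2 light over monosome was 1.87 and heavy over light 2.26.

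**Figure D2:**
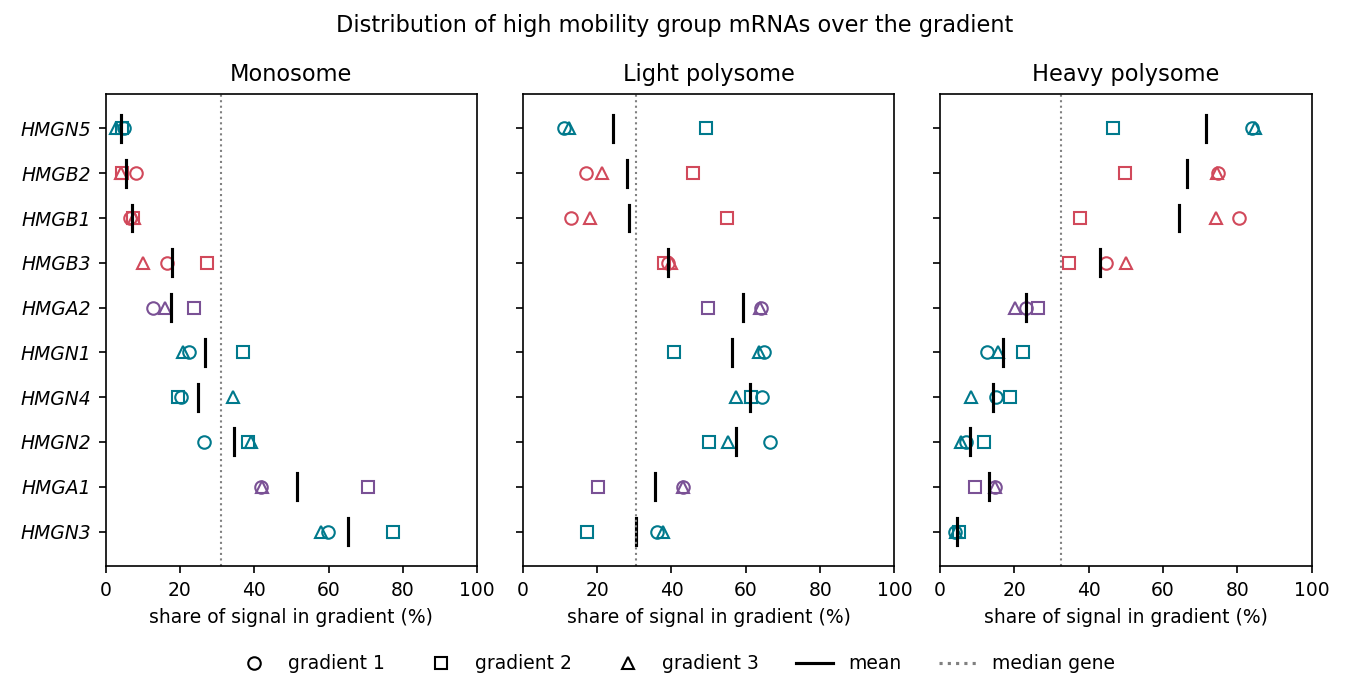
Share of each mRNA's signal in a gradient (x axis, percent) found in monosomes, light polysomes and heavy polysomes, by gradient (symbols) with the mean (black bar) and the median gene (dotted line). HMGN5, HMGB2 and HMGB1 sit far right in heavy polysomes in gradients 1 and 3, HMGA2, HMGN1, HMGN4 and HMGN2 lie right of the median gene in light polysomes, and HMGN3 lies furthest right in monosomes.

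The other 4 HMGN mRNAs lay below the median gene in load. HMGN2, an abundant member that is expressed in most tissues, had 25064, 11786.5 and 41864 normalized counts in monosome libraries, 63137, 15402 and 59216 in light and 6615, 3608 and 5946 in heavy polysome libraries. Its heavy polysome libraries lay below all others, and light polysomes held the largest share in each gradient, 66.6%, 50.01% and 55.3%. Heavy over light was -2.89 (SE 0.64) and heavy over monosome -2.15 (SE 0.64) on the log2 scale. Of all reads of the family, HMGN2 supplied 37.8%, 23.3% and 51.4% in the monosome libraries, 48.5%, 21.1% and 46.7% in the light polysome libraries and 6.001%, 7.995% and 7.82% in the heavy polysome libraries. In gradient 2 it was below HMGA1 in monosomes (39.5%) and below HMGB1 in light polysomes (28.2%), and in heavy polysomes HMGB1 supplied 44.0%, 31.5% and 32.8%.

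HMGN4 arose as a copy of HMGN2 and its coding sequence is still 86.5% identical to it, with the same length of 273 nt. Its normalized counts were 1468, 1301 and 3667 in monosome libraries, 4635, 4078 and 6153 in light and 1084, 1249.8 and 904 in heavy polysome libraries. The light polysome libraries lay above all libraries of both other fractions. As with HMGN2, light polysomes held most of the signal (61.1% ± 3.6), and the mean ribosome load of HMGN4 was the higher of the pair in 3 of 3 gradients, by 0.37, 0.53 and 0.17. Heavy over light was -2.19 (SE 0.42) on the log2 scale and light over monosome 1.35 (SE 0.42).

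HMGN1, which loosens chromatin around nucleosomes and takes part in DNA repair, gave 6559, 5212 and 6357 normalized counts in monosome libraries, 18894, 5755 and 19482 in light and 3670.5, 3164 and 4803 in heavy polysome libraries. The heavy polysome libraries were the lowest, and light polysomes led in each gradient with 64.9%, 40.7% and 63.6%. On the log2 scale heavy over light was -1.75 (SE 0.49) and light over monosome 1.09 (SE 0.49), and light over monosome was 1.67 without the light polysome library of replicate 2.

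HMGN3, a member studied in the eye and in pancreatic islets, was the only one in which monosomes led in all 3 gradients. It had 12325, 4542 and 11128 normalized counts in monosome libraries, 7425, 1019.8 and 7213 in light and 836, 302 and 834 in heavy polysome libraries. The heavy polysome libraries lay below all others and held 4.06%, 5.15% and 4.35% of the signal, and monosomes held 59.9%, 77.5% and 58.0%. Heavy over monosome was -3.84 (SE 0.69) on the log2 scale, where HMGN5 had 4.13. For HMGN3 light over monosome was -1.17 (SE 0.69) and heavy over light -2.67 (SE 0.69). Without the light polysome library of replicate 2 they were -0.22 and -3.62. The antisense transcript HMGN3-AS1 overlaps HMGN3 and accounts for the 8.77% of 75-nt windows of the HMGN3 transcript that are found in another gene. Whether counting used strand is not given in the sources used here, so reads of the pair cannot be told apart there. No window in the coding sequence was shared.

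HMGA1 and HMGA2 both carry AT hooks, and their mRNAs differed. HMGA2, an embryonic member whose mRNA is a known target of let-7 microRNAs, had 720.2, 1009 and 1006 normalized counts in monosome libraries, 3577, 2113 and 4011 in light and 1289, 1114 and 1272 in heavy polysome libraries. Light polysomes stood above the other fractions and held 64.0%, 49.9% and 63.8% of the signal. The log2 difference was 1.79 (SE 0.35) for light over monosome, -1.35 (SE 0.35) for heavy over light and 0.44 (SE 0.35) for heavy over monosome.

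HMGA1, the member that is widely high in dividing and transformed cells, had 9826, 19955 and 12212 normalized counts in monosome libraries, 10139, 5693 and 12475 in light and 3494, 2663 and 4313 in heavy polysome libraries. Its heavy polysome libraries were the lowest of all, while monosome and light libraries overlapped. In gradients 1 and 3 monosomes and light polysomes held similar shares (41.9% and 43.2%, and 42.1% and 43.0%), and in gradient 2 monosomes held 70.5%. Heavy over monosome was -1.97 (SE 0.46) on the log2 scale and light over monosome -0.58 (SE 0.46), and without replicate 2 light over monosome was 0.038. The load of HMGA2 lay 0.05 to 0.19 below the median gene over the 3 gradients, though level with the mean gene (0.0033 above it on the log2 scale), and that of HMGA1 0.77 to 1.40 below it.

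**Figure D3:**
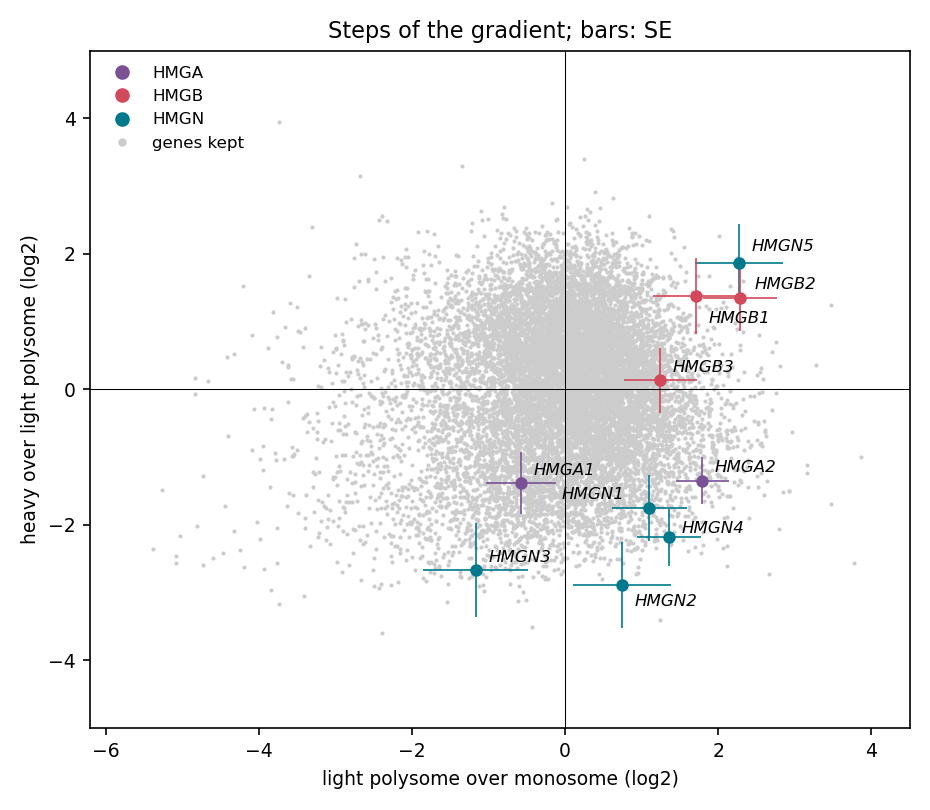
Difference between light polysomes and monosomes (x axis, log2) against that between heavy and light polysomes (y axis, log2) for the genes kept (grey) and the 10 members, with SE bars; subfamilies are coloured as in the legend. HMGN5, HMGB2 and HMGB1 lie at upper right, HMGA2, HMGN1, HMGN4 and HMGN2 at lower right, and HMGA1 and HMGN3 at lower left. Without the light polysome library of replicate 2, light over monosome was -0.25 for HMGA1 and -0.22 for HMGN3.

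Light polysomes led in 5, 7 and 5 of the 10 members in gradients 1, 2 and 3, and gradient 2 includes the light polysome library that stood apart. The share of all genes led by light polysomes is not given here, so nothing is read from these counts. The authors' strict classes, which ask for a leading fraction in every replicate, placed HMGA2, HMGN1, HMGN2 and HMGN4 in light polysomes, 4 of 10, beside 3.94% of all genes kept; the classes come from percentages that were known when the family was put forward, so nothing is read from that. HMGN3 fell in the monosome class and HMGB2 in the heavy polysome class, and HMGA1, HMGB1, HMGB3 and HMGN5 were unassigned or mixed, a class that holds 70.9% of the genes kept. Of the 4 unassigned members, HMGB1, HMGB3 and HMGN5 had heavy polysomes in the lead in gradients 1 and 3 and light polysomes in gradient 2. HMGA1 had light polysomes in the lead in gradients 1 and 3 and monosomes in gradient 2. The share of the family in all reads was lowest in the monosome libraries, 0.191%, 0.159% and 0.313%, against 0.942%, 0.622% and 0.869% in light and 0.790%, 0.409% and 0.584% in heavy polysome libraries.

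The same limma fit was run over all genes kept, and a gene was called at a Benjamini-Hochberg adjusted p of 0.05. For heavy over monosome 7 members were called, 4 higher and 3 lower, where 49.1% of all genes were called, 24.7% higher and 24.4% lower. For light over monosome 5 members were called, 5 higher and 0 lower, where 18.7% of all genes were called, 8.47% higher and 10.2% lower. For heavy over light 8 members were called, 2 higher and 6 lower, where 32.2% of all genes were called, 14.7% higher and 17.5% lower. Against the median gene in mean ribosome load 6 members were called, 3 higher and 3 lower, where 46.7% of all genes were called, 22.0% higher and 24.7% lower. The libraries of the fractions did not overlap for 10 of 10 members in heavy against monosome (60.5% of all genes), for 6 in light against monosome (35.8%) and for 7 in heavy against light (43.4%). These contrasts were in view when the family was put forward, so the counts are listed with their background and nothing is read from them. The median difference of the family was -0.11 for heavy over monosome, 1.30 for light over monosome and -1.37 for heavy over light, where the medians of all genes were 0.13, 0.035 and 0.049. Leaving out replicate 1, 2 or 3 gave 4, 8 and 5 members called by limma for heavy over monosome, where 24.7%, 61.4% and 31.0% of all genes were called. For light over monosome it gave 2, 9 and 2 members, where 4.42%, 35.4% and 7.36% of all genes were called. For heavy over light it gave 0, 9 and 0 members, where 0, 7651 and 1 of all genes were called. At an unadjusted p under 0.05 these were 4, 9 and 6 members beside 19.6%, 64.4% and 24.4% of all genes. With all replicates and an adjusted p under 0.05, edgeR called 7 members and 4263 of 12720 genes for heavy over light. DESeq2 called 9 members and 4908 genes for the same comparison. Differences between heavy and light polysomes without replicates 1 and 3 were -2.70 and -2.67 for HMGN2 and -2.24 and -1.90 for HMGN4.

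Coding length was not used by the rule, but the loads set against it were in view when the family was put forward. The 4 members with a coding sequence over 600 nt (603 to 849 nt) had loads of 3.74 to 4.95, and the 6 under that length (273 to 330 nt) had loads of 1.68 to 3.05, with no overlap. No member has a coding length between 330 and 603 nt, and the longer members are the HMGB genes and HMGN5, so this split largely follows subfamily. Spearman's rho between coding length and load was 0.851 over the 10 members and 0.253 over the 12715 genes kept with a coding length. Members of one subfamily share ancestry and all points share the same libraries, so these are descriptions. Within the HMGN genes HMGN5 has the longest coding sequence and the highest load, but length did not order the rest: HMGN3, at 300 nt, had a lower load than HMGN2 and HMGN4, at 273 nt each. HMGB1 (648 nt) and HMGB2 (630 nt) did not differ in load beyond their spread.

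**Figure D4:**
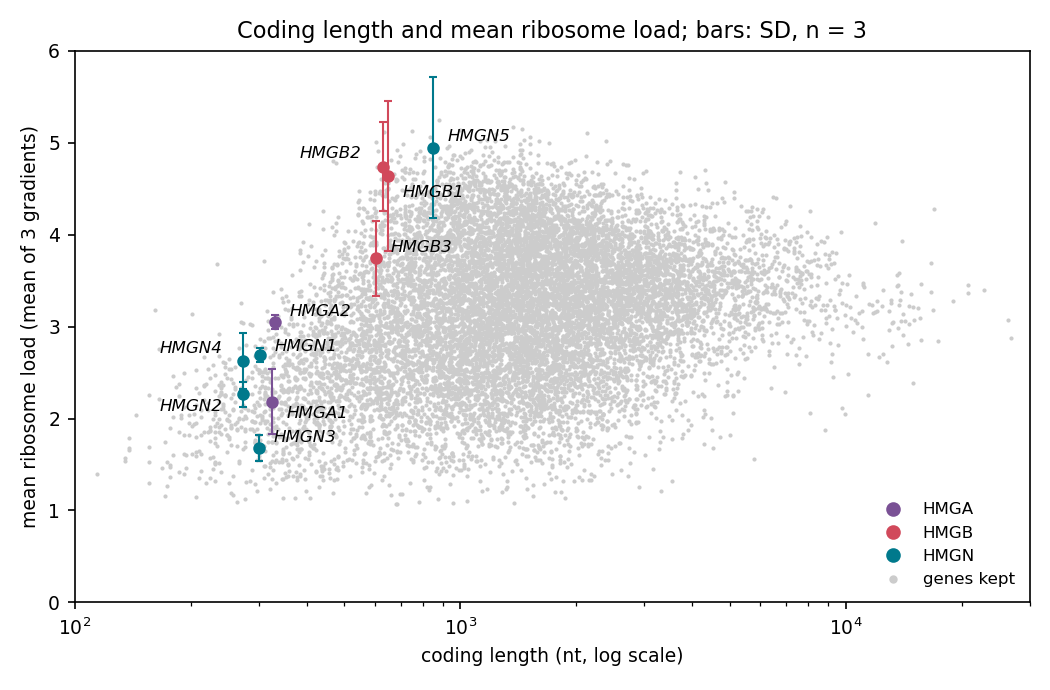
Coding length (x axis, nt, log scale) against mean ribosome load (y axis, mean of 3 gradients) for the genes kept (grey) and the 10 members with SD bars. The 4 members over 600 nt lie at 3.74 to 4.95 and the 6 shorter members at 1.68 to 3.05.

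Set against other genes whose coding length was within 10% of their own, the members spread widely. These loads were in view when the family was put forward, so the ranks are a description. HMGN5 exceeded 99.7% of 989 such genes, HMGB2 99.1% of 782 and HMGB1 98.0% of 760. Among the short members, HMGA2 exceeded 94.0% of 233 genes, HMGN4 90.2% of 123 and HMGN1 86.6% of 172, although all of them lay below the median of all genes. HMGB3 (84.3%) and HMGN2 (69.1%) came next, and HMGA1 sat at the middle of its length class (50.2%). HMGN3 was the exception, above only 13.6% of the 169 genes of its length. In 3 of 3 gradients 7 members were above the median of their length class and 1, HMGN3, was below it. The share of all genes on the same side in every gradient is not given here, so nothing is read from these counts.

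In normalized counts of these pools, the mRNAs of the family were among the higher ones per length. Each pool is scaled to the same typical gene and no library of unfractionated RNA was used, so these values do not measure the amount in the cell. Normalized counts per kilobase of transcript, averaged over the 9 libraries, ran from 21703 for HMGN2, above 99.3% of the genes kept, to 400.2 for HMGA2, above 78.7%. HMGN1 (5937), HMGN3 (5814), HMGB2 (4378) and HMGA1 (4157) followed HMGN2, and HMGB1 was at 2661, HMGN4 at 2226, HMGN5 at 1868 and HMGB3 at 1393. No member had fewer than 139 reads in any library, a value that HMGN5 had in 1 monosome library.

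The family is also known for its processed pseudogenes, and reads of 75 nt can be assigned to a copy. Of all 75-nt windows in the HMGN2 coding sequence, 77.4% occur exactly in the transcript of another annotated gene, and for HMGB1 it is 73.5%, mostly processed pseudogenes such as HMGN2P5 and HMGB1P5. The share in the coding sequence was 32.3% for HMGN1, 7.94% for HMGB3 and 7.20% for HMGA1. Over the whole transcript the share was lower: 17.1% for HMGN2, 10.98% for HMGB1, 5.653% for HMGN1, 1.583% for HMGA1 and 1.205% for HMGB3. For HMGA2, HMGB2, HMGN4 and HMGN5 it was 0 over the whole transcript. HMGN2 and HMGB1 values are therefore uncertain to the extent that counting split or dropped such reads, while HMGB2, HMGN5 and HMGN4 share no such window.

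Over all 9 percentages the mRNA most like each of the 10 members was outside the family. Likeness was the root-mean-square difference in percentage points, over 12685 genes. With 10 members among so many genes, a nearest gene outside the family was likely beforehand, so nothing about likeness within the family is read from it. For HMGN5 the nearest were CD81 (3.33), PGAM1 (3.52), CD9 (3.60), YWHAB (4.45) and ITM2B (4.58), which encode membrane tetraspanins, a glycolytic enzyme, a 14-3-3 protein and a membrane protein. For HMGN3 they were SEPTIN1 (2.01), CCDC167 (2.12), CSTB (2.29), FAM204A (2.39) and ZNF695 (2.39). HMGB1 was nearest to TMBIM6 (2.14) and HMGB3 to ULBP3 (2.39). HMGA1 was nearest to FAM174C (1.53), HMGA2 to RITA1 (2.04), HMGN1 to C7orf31 (1.75), HMGN2 to the histone H4 gene H4C3 (2.08) and HMGN4 to TMTC1 (3.19). Within the family HMGB1 lay nearest to HMGN5, at 5.73 points, HMGB2 nearest to HMGB1 at 5.89, and HMGN2 and HMGN4 nearest to each other at 8.66.

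Relatives and partners of the family were counted by list. Of 20 kept genes with an HMG box outside the SOX group, heavy over monosome was higher in 13 and lower in 0 by limma (adjusted p of 0.05), beside 24.7% and 24.4% of all genes, and their median load was 3.81 against 3.21 for all genes kept. They ran from SMARCE1, a subunit of the SWI/SNF remodelling complex, at 4.70 ± 0.36, to HMG20B, a subunit of a histone demethylase complex, at 3.02 ± 0.42. SSRP1, the HMG-box subunit of the histone chaperone FACT, had a load of 4.47 ± 0.51. The count of 13 became 4 without replicate 1 and 6 without replicate 3, and was 13 without replicate 2. Of all genes 9.99%, 13.8% and 31.4% were higher in these settings. Coding lengths in this list ran from 741 nt (TFAM) to 7545 nt (CIC), and its load was not compared with genes of similar length.

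Linker histones, which HMGN proteins displace from nucleosomes, were split: of 4 kept, H1-10 was higher in heavy polysomes, with a load of 4.49 ± 0.31. The 2 that were lower, H1-2 (2.23 ± 0.43) and H1-4 (2.32 ± 0.27), had few reads. Mean normalized counts were 125 for H1-2 and 27.3 for H1-4, against 3844 for H1-10. Of 4 kept genes of the SET complex 2 were higher and 0 lower in heavy polysomes, namely ANP32A, whose protein has an acidic tail, at a load of 5.13 ± 0.51, and SET at 4.08 ± 0.66. APEX1 was the lowest of them at 3.42 ± 0.86. Among 4 kept RNA-binding proteins of the LIN28 and HMGA2 axis 1 was higher and 0 lower, IGF2BP2 (3.87 ± 0.32), and LIN28B had the lowest load at 2.89 ± 0.18. Of all genes 24.7% were higher and 24.4% lower. Without replicate 1, 2 or 3, the genes higher in heavy polysomes numbered 1, 2 and 0 of the linker histones, 1, 4 and 1 of the SET complex and 0, 1 and 0 of the LIN28 and HMGA2 axis. The genes lower numbered 1, 2 and 1 of the linker histones, 0 of the SET complex in each case, and 0, 2 and 0 of the LIN28 and HMGA2 axis. In the same settings 9.99%, 31.4% and 13.8% of all genes were higher and 14.7%, 30.0% and 17.3% lower. Of 5 receptors of extracellular HMGB1, only CXCR4 was kept, with a load of 4.17 ± 0.37. Its mean was only 50.5 normalized counts, and it was called neither higher nor lower for heavy over monosome.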

How the data were processed

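RNA from monosome, light polysome and heavy polysome pools of vehicle-treated HEK293 cells gave single-end libraries read to 75 nt, with 3 biological replicates per pool, per the labels. The submitters' processing notes name featureCounts and GRCh38. For the aligner, the counting options and the use of strand, nothing is given in the sources used here. The signal the authors deposited per library is a normalized count, a gene's read count divided by 1 size factor, and 100% of its values in every library came out as whole reads (tolerance 0.01) after division by the column's smallest step. The size factors lay within 0.987% of median-of-ratios factors, so every fraction is scaled to the same typical gene; the ERCC spike-ins named in the labels are not used here. The deposited percent divides a normalized count by the sum over the 3 fractions with that replicate number (recomputed to within 5.5e-08). The mean ribosome load deposited by the authors is a score, recomputed to within 4.61e-09 from the mean percentages with weights of 1, 2.5 and 6, which were solved from the table. The authors' strict class was used as deposited.

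The filter asked for 10 or more recovered reads on average (9 libraries) and for reads in all 3 gradients; 12720 of 13661 genes passed and 941 did not. Fractions were compared with limma 3.58.1 (trend, R 4.3.3) on log2(normalized count + 1), all 9 libraries in one fit with fraction as the only term, two-sided, Benjamini-Hochberg adjusted over all genes kept, threshold 0.05. Such differences understate the change of low genes. For mean ribosome load, a one-sample moderated limma test took log2 load minus the median gene of each of the 3 gradients. In simulated counts for heavy over monosome over 12720 genes, the same steps recovered 85% of changes of log2 size 2 and 99% of log2 size 4. The simulation changed 100 genes of each size, in heavy polysomes only, and held no library that stood apart. In the real data 49.1% of genes were called, so these rates may not hold there. Alternatives were TMM scaling, edgeR 4.0.16 and DESeq2 1.42.0 on the recovered reads, other pseudocounts, filters, weights, measures and centring, the replicate block, and leaving out each replicate; leaving out the light polysome library of replicate 2 alone was added after the data were seen. The labels give the replicate number also as a batch, so same-numbered libraries are paired by label. Their deviations from the fraction means correlated between -0.540 and 0.391. The highest correlations with libraries of another number lay between -0.0439 and 0.394. Percentages and loads per gradient therefore rest on the pairing by label, which these correlations do not bear out.

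Gene models, coding lengths and sequences came from GENCODE 29 on GRCh38 (1 transcript per gene; 12715 genes kept had a coding length). Shared windows are exact matches of 75 nt, on either strand, to transcripts of other genes. All 10 members are named. The rule also named the gene nearest to each member (that of HMGB2 is not reported here), the 5 nearest to the members at both ends of the family, and the highest and lowest gene of each list; SSRP1, H1-4 and SET were named after their values were seen. The members and lists were chosen with earlier results of these data known. SDs measure the spread between biological replicates of 1 line. SEs are moderated limma values that pool the spread within every fraction, so a gene has the same SE in each comparison of fractions. An SE is therefore not the spread of a single difference between replicates. For HMGN3, heavy over monosome had an SE of 0.69, while its differences by replicate number were -3.88, -3.91 and -3.74.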

Additional observations from a re-analysis of the deposited data

How the results depend on the processing

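Over 450 recalculations of member values, 388 kept direction and side of the threshold, 33 lost a call, 23 gained one and 6 changed sign. With the replicate block, 7, 5 and 8 members were called for heavy over monosome, light over monosome and heavy over light, as without it, and the block changed no call of a member; over all genes it gave 6274, 2424 and 4302 calls against 6246, 2380 and 4097. The 6 changes of sign were as follows. HMGA1 changed in light over monosome without replicate 2 (0.038, with -0.89 to 0.038 over the libraries left out). HMGB3 changed in heavy over light without the light polysome library of replicate 2 (-0.19, with -0.19 to 0.26 over those left out). HMGA2 changed in load centred on the mean gene (0.0033). With the share in light plus heavy polysomes, HMGA2 (13.4 points), HMGN1 (4.27 points) and HMGN4 (6.23 points) lay above the median gene on average. HMGB2 lost its call in heavy over light under TMM scaling and edgeR, and HMGB1 gained one under DESeq2; the cause was not tested.

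Leaving out each replicate in turn moved counts most. Heavy over monosome called 3137 to 7814 genes and 4 to 8 members, light over monosome 562 to 4507 genes and 2 to 9 members, and heavy over light 0 to 7651 genes and 0 to 9 members; mean ribosome load called 3422 to 7264 genes and 6 to 9 members. Without replicate 1 heavy over light called 0 genes by limma, with 2490 at an unadjusted p under 0.05, where the full data gave 4263 by edgeR and 4908 by DESeq2. Without replicate 3 it called 1. Without the light polysome library of replicate 2 it called 6423. The lowest count of a member in any library was 139 reads.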

Other observations

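HMGN5 and HMGN3 share the nucleosome-binding core, with 19 of 24 bases identical, yet gave the highest and lowest ribosome load of the family. Acidic codons made up 36.2% of the coding sequence in HMGN5, 26.1% in HMGB1, 23.0% in HMGB2 and 22.0% in HMGB3, the 4 mRNAs above the median gene in load, and 11.9% to 19.0% in the 6 below it. The coding GC content was 37.9% in HMGN5, 43.7% in HMGB1, 45.8% in HMGB3 and 47.0% in HMGB2, against 45.3% in HMGN3, 50.8% in HMGN1, 51.3% in HMGN2 and HMGN4, 57.9% in HMGA2 and 61.1% in HMGA1. HMGN3 had a coding GC content below that of HMGB3 and HMGB2, a short coding sequence and the lowest load. These are values of related genes, with no test.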
